A study of Mus musculus with 8 samples.

Results

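Genes of the ventricular myocardium were followed in RNA from whole fetal mouse lungs. The group holds 8 genes of the 55385 in the count files, chosen by symbol and each matched to 1 Ensembl identifier: Myl2, Myl3, Myh7, Mybpc3, Tnni3, Irx4, Hand1 and Ankrd1. The lungs came from C57BL/6 fetuses at E18.5. In the tracheal occlusion (TO) group the trachea had been tied off in utero, together with a carotid artery and a jugular vein, and the dams had received progesterone. The other lungs are labelled as controls, and nothing in the labels says whether they had surgery. Libraries were made from 4 control and 4 TO lungs, which keep the replicate numbers of the labels. Each is a library of bulk lung tissue, and no source says how far heart, great vessels or thymus were trimmed away.

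Cardiac muscle contracts through sarcomeres, in which thick filaments of myosin pull on thin filaments of actin, and the chambers of the heart use different versions of several of these proteins. The ventricles use the regulatory light chain Myl2 and the essential light chain Myl3, and in the fetus they use the heavy chain Myh7 beside Myh6, whereas the atria use Myl7 and Myl4 with Myh6. In mice the lung itself also holds heart muscle, since a sleeve of cardiomyocytes of atrial type runs along the pulmonary veins into the organ. Mybpc3 and Tnni3 belong to the sarcomere of every chamber, and Ankrd1, a titin-binding protein also found in the nucleus, is made in all chambers and is a target of the Yap coactivator in many cells. Slow skeletal muscle fibers also use Myl2, Myl3 and Myh7.

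The libraries held 270078 read pairs on genes in TO 1 and 22822261 to 35002061 in the other 7. Values are CPM, read pairs scaled to the size of the library, after TMM scaling, which adjusts for differences in library composition. In TO 1 a single read pair was worth 3.70 CPM before this scaling, and its values are therefore coarse. Where a gene had 0 read pairs, the level that 3 read pairs would give was taken as the limit of detection, which was 10.3 CPM in TO 1 and 0.0852 to 0.131 CPM elsewhere. That limit and the intervals given below cover counting error only, because the reads carry no molecular identifiers. The summed CPM of 7 lung genes was 5839 in TO 1, 7618 in TO 4 and 8350 to 17050 elsewhere. Among them Sftpc, the surfactant protein C gene of alveolar type 2 cells, ranged from 4431 to 12790 CPM. Scgb1a1, a gene of club cells, ranged from 24.1 CPM in TO 1 to 336 CPM in TO 2. The libraries also differed in tissues other than heart. The summed CPM of 12 skeletal muscle genes was 2906 in TO 1 and 26.8 to 229 in the other 7, that of 6 thymocyte genes 234 in TO 1 and 0.404 to 14.8 elsewhere, and that of 5 hepatocyte genes 765 in control 1, 316 in TO 4 and at most 75.7 in the rest. The part of these other tissues in the results below was not tested except where a value is given.

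Promoter sequences are shown for Myl3, Myh7 and Irx4, each high in controls 3 and 4 and TO 4, and for Ankrd1, of another pattern. Each is the 250 bases before the RefSeq transcription start on GRCm38.p6, 5′ to 3′ on the strand of the gene. Capitals mark the M-CAT element, CATTCC on either strand, to which TEAD factors, the DNA-binding partners of Yap, are known to bind.
Myl3, chr9:110763428-110763677, plus strand: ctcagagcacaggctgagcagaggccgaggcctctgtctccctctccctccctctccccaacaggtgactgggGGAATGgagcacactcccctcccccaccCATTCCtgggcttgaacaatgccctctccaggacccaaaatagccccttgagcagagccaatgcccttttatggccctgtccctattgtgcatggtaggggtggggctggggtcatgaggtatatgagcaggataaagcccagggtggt
Myh7, chr14:54994627-54994876, minus strand: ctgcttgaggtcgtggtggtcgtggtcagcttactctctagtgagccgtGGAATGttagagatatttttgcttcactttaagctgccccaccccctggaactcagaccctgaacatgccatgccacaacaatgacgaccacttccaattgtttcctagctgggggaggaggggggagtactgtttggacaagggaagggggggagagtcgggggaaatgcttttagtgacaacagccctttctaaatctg
Irx4, chr13:73260247-73260496, plus strand: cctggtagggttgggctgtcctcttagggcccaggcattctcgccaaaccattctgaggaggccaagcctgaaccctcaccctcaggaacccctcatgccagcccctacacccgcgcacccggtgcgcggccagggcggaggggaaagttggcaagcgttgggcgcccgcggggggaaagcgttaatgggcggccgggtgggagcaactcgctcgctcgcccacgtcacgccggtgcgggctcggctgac
Ankrd1, chr19:36119845-36120094, minus strand: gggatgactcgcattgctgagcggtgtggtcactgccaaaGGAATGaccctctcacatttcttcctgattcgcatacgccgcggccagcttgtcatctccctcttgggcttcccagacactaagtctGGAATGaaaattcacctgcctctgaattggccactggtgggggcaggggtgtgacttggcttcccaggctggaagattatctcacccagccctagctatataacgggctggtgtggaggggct

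Of the 8 genes, 7 had a window in the promoter table, and Hand1 had none. The windows of Myl2 lie upstream of the Myl2 gene as it was annotated for counting and are not shown. The M-CAT element stood 2 times in the Myl3 window, beginning 177 and 149 bases before the start, 2 times in that of Ankrd1, at 210 and 123 bases, and 1 time in the Myh7 window shown, at 201 bases. It was in 12.6% of the 32851 promoter windows of this length. The windows of Myl7 and Myh6, which the atria use, also held 1 match each. The windows of Irx4, Mybpc3 and Tnni3, both windows of Myl2 and the window of a second Myh7 start, further into the gene, had no match. The GATA letters AGATAA were present in 9.99% of all windows. They stood in the Ankrd1 window at 47 bases before the start, where they overlapped no M-CAT match. The first of the Myl2 windows also held them, at 211 bases, and the windows of the other members did not. A match describes the letters of a window and is not evidence of binding.

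Myl2, the regulatory light chain of the ventricle, separated the libraries most widely. It (ENSMUSG00000013936.12, chromosome 5, from 122100951 to 122113472 on GRCm38) was at 1.53, 5.23, 181 and 153 CPM in controls 1 to 4. In TO 1 to 4 it was at 782, 1.74, 1.78 and 501 CPM, the first from 227 read pairs. It was thus high in 2 lungs of each group and low but detected, at 1.53 to 5.23 CPM, in the other 2. Among control lungs the highest level was 118-fold the lowest, and among TO lungs 450-fold.

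The essential light chain Myl3 (ENSMUSG00000059741.13, chromosome 9, from 110741861 to 110769798) followed the same libraries. It was at 2.23, 2.63, 113 and 98.2 CPM in controls 1 to 4 and at 523, 4.81, 8.79 and 308 CPM in TO 1 to 4. Control 3, control 4, TO 1 and TO 4 were the high libraries, and the highest level was 50.6-fold the lowest among controls and 109-fold among TO lungs.

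Myh7 (ENSMUSG00000053093.16, chromosome 14, from 54970684 to 54994626), the slow or beta myosin heavy chain, was at 72.6, 99.2, 763 and 589 CPM in controls 1 to 4. In TO 1 to 4 Myh7 was at 1697, 130, 165 and 1453 CPM. The same 4 libraries were high, but the others kept a clear level of Myh7, and the highest level was 10.5-fold the lowest among controls and 13.1-fold among TO lungs.

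The transcription factor genes were rare. Irx4 (ENSMUSG00000021604.15, chromosome 13, from 73260479 to 73269608), which represses atrial genes in the ventricle, had 1, 1, 120 and 65 read pairs in controls 1 to 4 and 2, 0, 6 and 201 in TO 1 to 4. These correspond to 0.0438, 0.0325, 4.03 and 2.62 CPM in the controls. In TO 1 to 4 they correspond to 6.89, 0, 0.248 and 5.71 CPM. The values of controls 1 and 2, TO 1 and TO 2 lie under the limit of detection of their libraries. TO 4 was at least 65.7-fold higher than TO 2. Hand1 (ENSMUSG00000037335.13, chromosome 11, from 57828705 to 57832818), a factor of the left ventricle and the outflow tract, had 10 read pairs in control 3, 10 in control 4, 14 in TO 4 and 0 in every other library. Its levels in the first 3 of these were 0.336, 0.404 and 0.397 CPM. At the depth of TO 1, a Hand1 level of this size was not detectable.

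**Figure D1:**
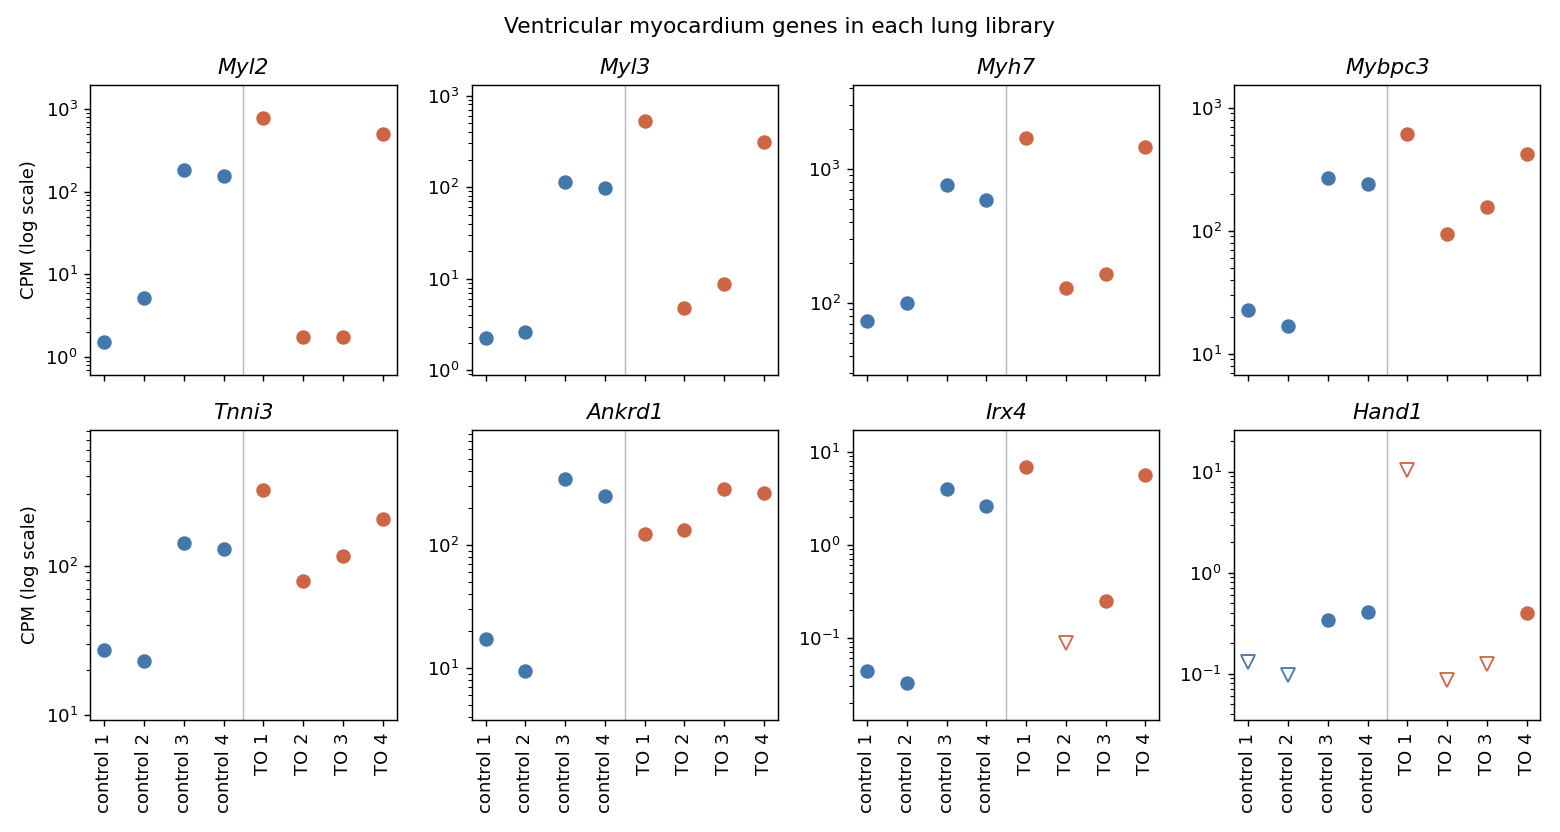
CPM of each of the 8 genes in each library on a log scale, 1 panel per gene, with control lungs in blue and TO lungs in orange. Open triangles mark libraries with 0 read pairs and stand at the level that 3 read pairs would give. Myl2 and Myl3 were high in controls 3 and 4, TO 1 and TO 4. Irx4 was high in controls 3 and 4 and TO 4. Its value in TO 1, from 2 read pairs, lies under the limit of detection. Ankrd1 was low only in controls 1 and 2.

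The sarcomere genes common to all chambers followed a second pattern, in which controls 1 and 2 were low and TO 2 and TO 3 intermediate. Mybpc3 (ENSMUSG00000002100.15, chromosome 2, from 91118144 to 91136516), the myosin-binding protein C of heart, was at 22.7, 16.9, 269 and 239 CPM in controls 1 to 4. In TO 1 to 4 Mybpc3 was at 613, 94.4, 157 and 424 CPM. Tnni3 (ENSMUSG00000035458.15, chromosome 7, from 4518305 to 4524229), the inhibitory troponin of heart, was at 27.0, 23.1, 142 and 129 CPM in controls 1 to 4. In TO 1 to 4 Tnni3 was at 324, 79.1, 117 and 204 CPM. For both genes TO 2 and TO 3 lay well above controls 1 and 2. TO 3 had 6.89-fold the Mybpc3 of control 1 and 4.32-fold its Tnni3, against 1.16-fold for Myl2.

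Ankrd1 (ENSMUSG00000024803.9, chromosome 19, from 36111961 to 36120099) followed the Myl2 level least. It was at 17.4, 9.48, 344 and 251 CPM in controls 1 to 4 and at 124, 132, 288 and 267 CPM in TO 1 to 4. TO 3, with hardly any Myl2, thus had a level of Ankrd1 close to that of TO 4, and TO 1, with the most Myl2, had one close to that of TO 2, although the value of TO 1 rests on 36 read pairs. The highest level was 36.3-fold the lowest among controls and 2.33-fold among TO lungs. Other targets of Yap and Taz had smaller ranges in value. Of 8 of them besides Ankrd1, Ccn1 ranged from 48.2 to 156 CPM, Ccn2 from 31.0 to 121 CPM and Amotl2 from 117 to 215 CPM over the 8 libraries. Their summed level in controls 1 and 2, at 594 and 663 CPM, lay within the range of TO 1 to 4, from 454 to 725 CPM. Control 3, the library with the most Ankrd1, also had the highest sum of these targets, 1008 CPM, and control 4 had 670 CPM.

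Levels of different genes were compared per kilobase of merged exons, on the scale of CPM per kilobase. In TO 4 the order ran from Myl2, at 257, through Myh7 at 169, Myl3 at 150, Mybpc3 at 102, Tnni3 at 99.0 and Ankrd1 at 92.5 to Irx4 at 2.19 and Hand1 at 0.199. In TO 3 the first 6 of these genes stood in nearly the reverse order, with Ankrd1 at 99.9, Tnni3 at 56.6, Mybpc3 at 37.6, Myh7 at 19.1, Myl3 at 4.30 and Myl2 at 0.910, while Irx4 at 0.0950 and Hand1 at 0 were again last. Neighbors such as Mybpc3, Tnni3 and Ankrd1 in TO 4 differed by less than the spread between lungs of a group. Controls 3 and 4 stood between these 2 orders, with Ankrd1 first at 119 and 87.0 and Myl2 second at 92.8 and 78.3. Merged exons take in those of every annotated transcript, so a value per kilobase can be a low estimate. This holds for Myl2, with 1950 merged bases, and for the other members, such as Myl3 with 2044 and Tnni3 with 2063. Its effect on the order of the genes was not tested.

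The range of each gene within its group was set against that of all 22545 genes tested, on log2 CPM. The median gene had a range of 0.90 log2 units among the 4 controls and 1.5 among the 4 TO lungs, the latter including TO 1. Myl2 had ranges of 6.81 and 8.75, Myl3 of 5.61 and 6.74, Irx4 of 5.21 and 6.46 and Myh7 of 3.39 and 3.71. Mybpc3 had ranges of 3.99 and 2.70, Tnni3 of 2.61 and 2.03 and Ankrd1 of 5.17 and 1.22. Ankrd1 was the only member of the 8 whose range among TO lungs was under that of the median gene.

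To ask which chamber the heart RNA of each library resembled, ventricular genes were counted against their atrial partners in the same library. This share does not depend on the scaling between libraries. The partner of Myh7 was Myh6, which fetal ventricles also use, so that share is not one of ventricle against atrium alone. Myl2 made up 2.91% of the read pairs on Myl2 and Myl7 in control 1 (95% Wilson interval 2.10% to 4.01%), 10.4% in control 2 (8.99% to 12%), 45.4% in control 3 (44.5% to 46.3%) and 38.2% in control 4 (37.2% to 39.1%). In TO 1 it was 81.1% (76.1% to 85.2%, from 280 read pairs), in TO 2 0.872% (0.678% to 1.12%), in TO 3 0.708% (0.526% to 0.953%) and in TO 4 71.6% (71.0% to 72.1%). TO lungs thus held both the highest and the lowest shares. The mean was 38.6% ± 43.8 (SD, n = 4) in TO and 24.2% ± 20.7 (SD, n = 4) in control lungs, a difference of 14.4 percentage points. An exact permutation test, two-sided, gave p = 0.657, and in this design its p cannot go below 0.0286.

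The essential light chains gave the same order of libraries at the top. Myl4 was taken as the atrial partner, and whether its read pairs came from atrial muscle alone was not tested. Myl3 made up 69.7% of the read pairs on Myl3 and Myl4 in TO 1, 58.6% in TO 4, 34.8% in control 3 and 30.0% in control 4. In the remaining libraries it was 8.17% in control 2, 4.39% in control 1, 3.44% in TO 3 and 2.96% in TO 2. The heavy chains were less far apart. Myh7 made up 19.5%, 37.3%, 28.6% and 29.3% of the read pairs on Myh7 and Myh6 in controls 1 to 4 and 55.3%, 11.2%, 9.33% and 51.3% in TO 1 to 4. Control 2 therefore had a higher share of Myh7 than controls 3 and 4, which held 34.6-fold and 29.2-fold its level of Myl2. The mean was 31.8% ± 24.9 (SD, n = 4) in TO and 28.7% ± 7.25 (SD, n = 4) in control lungs (exact permutation test, two-sided, p = 0.857). This difference of 3.10 points became -4.74 points without TO 1 and -3.41 points without TO 4.

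**Figure D2:**
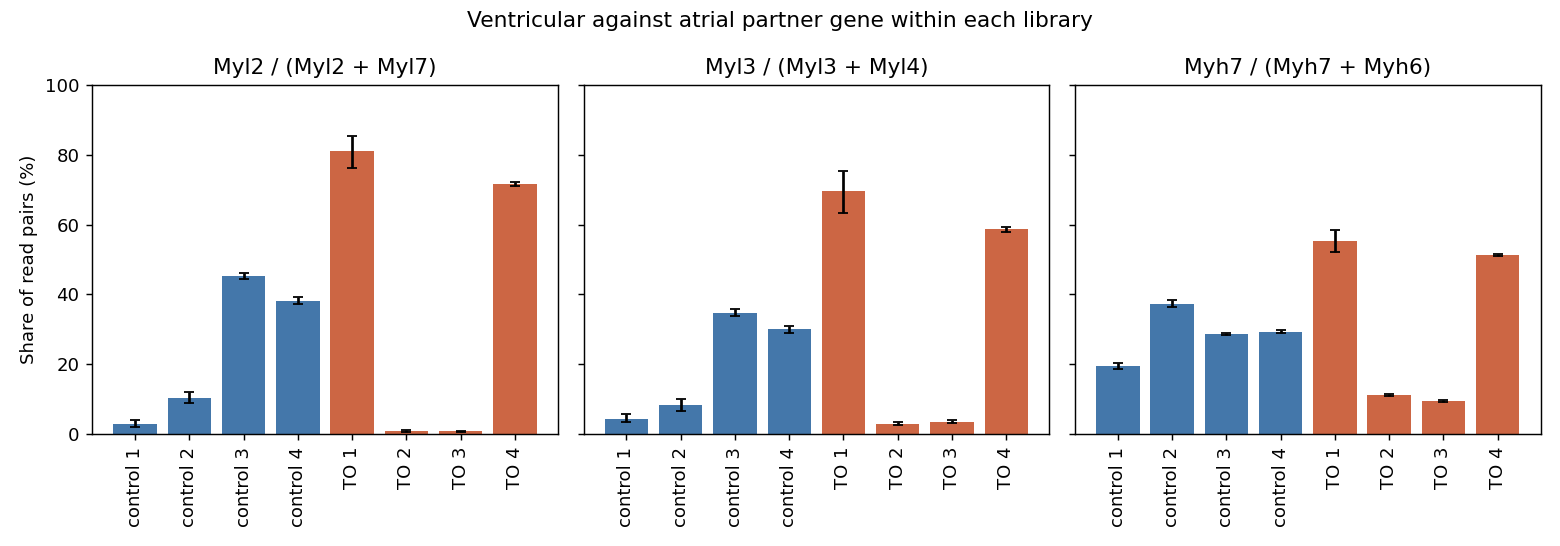
Share of read pairs, in percent, of each ventricular gene among the read pairs on that gene and its partner, for each library (control blue, TO orange). The partners are Myl7 and Myl4, taken as atrial genes, and Myh6, which fetal ventricles also use. Bars are the shares and whiskers their 95% Wilson intervals. TO 1 and TO 4 had the highest share of Myl2, Myl3 and Myh7, and TO 2 and TO 3 the lowest.

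The atrial genes themselves did not follow Myl2. Myl7, the atrial regulatory light chain, was at 51.2 and 45.0 CPM in controls 1 and 2 and between 183 and 249 CPM in the other 6 libraries, TO 2 and TO 3 included. Nppa, the atrial natriuretic peptide gene, was at 0.438 and 1.59 CPM in controls 1 and 2 and between 41.3 and 110 CPM elsewhere. Over 8 atrial and pulmonary vein genes the summed level was 410 and 248 CPM in controls 1 and 2 and 1533 to 2623 CPM in the other 6. Controls 1 and 2 thus had low levels of the atrial genes and of Myl2 and Myl3. TO 2 and TO 3 had the atrial genes with little Myl2 and Myl3. Controls 3 and 4, TO 1 and TO 4 had both kinds. Myh7 was at 130 and 165 CPM in TO 2 and TO 3. The sum of the 8 members was 442 and 737 CPM there, against 144 and 157 CPM in controls 1 and 2. In bulk tissue, more cells of a type and more RNA per cell cannot be told apart.

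Further genes enriched in the ventricle were divided between these patterns. Pln, phospholamban of the cardiac calcium pump, was at 27.7, 15.3, 58.5 and 42.4 CPM in controls 3 and 4, TO 1 and TO 4 and at 0.812 to 4.91 CPM in the other 4. Hey2, a repressor of the ventricular wall that vessels also express, was at 10.5, 11.8, 24.1 and 21.3 CPM in those 4 libraries and at 4.97 to 8.59 CPM in the rest. Nppb, the B-type natriuretic peptide gene, resembled Ankrd1 instead. It was at 0.263 and 0.0650 CPM in controls 1 and 2, the latter from under 3 read pairs, and at 35.8 CPM in TO 3, above TO 1 with 13.8 and TO 4 with 30.6 CPM. The summed level of 12 muscle genes shared by the chambers was highest in TO 1 and TO 4, at 6783 and 4864 CPM. One of them, Tnnt2, the cardiac troponin T, was at 78.2, 64.5, 639 and 608 CPM in controls 1 to 4 and 1491, 324, 469 and 1025 CPM in TO 1 to 4. Of the factors of cardiac development, Nkx2-5 was at 1.84, 1.88, 7.50 and 13.4 CPM in controls 1 to 4 and 34.4, 9.67, 11.0 and 22.2 CPM in TO 1 to 4.

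Since slow skeletal fibers also make Myl2, Myl3 and Myh7, skeletal muscle genes were read beside them. Myh8, the perinatal skeletal myosin, was at 32.9, 1.01, 6.79 and 9.20 CPM in controls 1 to 4 and 854, 44.3, 21.2 and 40.2 CPM in TO 1 to 4. TO 1 therefore had the highest level of both kinds of muscle, and the part of skeletal muscle in its ventricular values was not tested. The 12 skeletal genes, mostly of fast and perinatal fibers, had similar sums in TO 2 and TO 4, 218 and 229 CPM, while TO 4 had 289-fold the Myl2 of TO 2. Control 1, with a skeletal sum of 147 CPM against 76.6 in control 3 and 89.7 in control 4, had the lowest Myl2 of the controls. The slow skeletal troponins Tnnt1 and Tnni1 did go with Myl2. Their sum was 137 and 153 CPM in controls 3 and 4, 458 CPM in TO 1 and 284 CPM in TO 4, against 23.1 to 86.6 CPM in the other 4 libraries. Most of this sum was Tnni1, which the fetal heart also makes, at 434 CPM in TO 1, 263 CPM in TO 4, 123 and 142 CPM in controls 3 and 4 and 17.4 to 73.1 CPM in the rest. Tnnt1 was at 14.08 and 11.95 CPM in controls 3 and 4, 24.1 CPM in TO 1 from 7 read pairs and 20.6 CPM in TO 4. In the rest Tnnt1 was at 5.68 to 13.5 CPM. Tnnt1 alone did not separate these libraries, since TO 3, at 13.5 CPM, lay above control 4. Slow skeletal fibers and heart muscle cannot be told apart by genes that both make, and the part of slow fibers in the ventricular values was not tested.

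**Figure D3:**
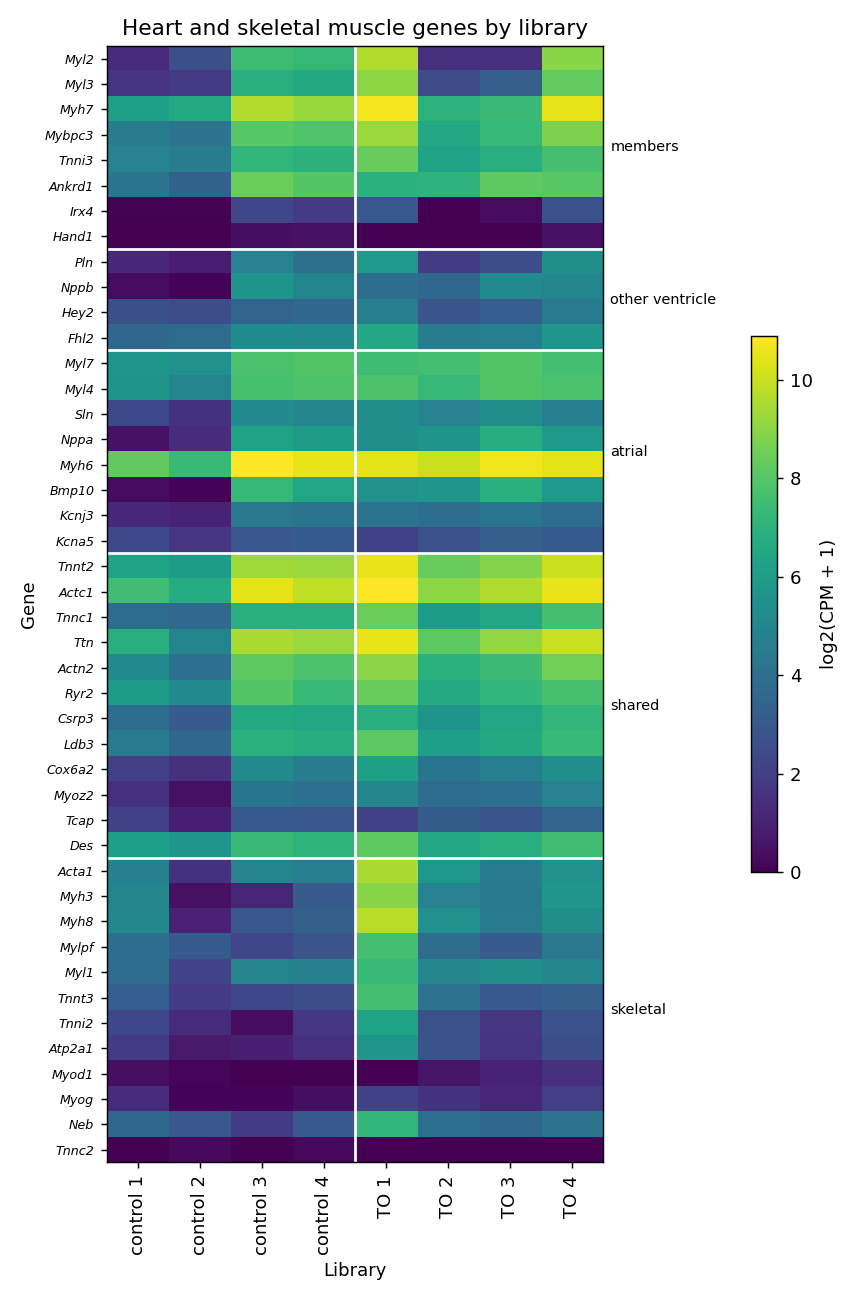
Log2(CPM + 1) of heart and skeletal muscle genes (rows, grouped as members, other ventricular, atrial, shared cardiac and skeletal genes) in each library (columns, controls left of the white line). Atrial genes such as Myl7 were low only in controls 1 and 2, Myl2 was low in TO 2 and TO 3 also, and Myh8 and Acta1 were highest in TO 1.

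TO was then compared with control over all 8 libraries by the quasi-likelihood test of edgeR. P-values were adjusted by the method of Benjamini and Hochberg across the 22545 genes tested, and genes with an adjusted p under 0.1 were called. All 8 genes of the group passed the filter of 5 read pairs in 3 libraries. None of the 8 was called, each with an adjusted p of 1 in edgeR. Over all genes 0% were called, and DESeq2 and limma-voom called 0 of the 8 as well. At an unadjusted p under 0.05 edgeR had 0 of the 8 genes and 2.35% of all genes tested. For 0 of the 8 genes did the 4 TO lungs lie wholly apart from the 4 controls, which was so for 2% of all genes tested.

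In value, 7 of the 8 genes were higher in TO, where 46.8% of all genes tested were. Their median log2 fold change was 1.12, against -0.018 over all genes tested. The standard error exceeded the fold change for Ankrd1, Irx4 and Hand1 and was smaller than it for the other 5 genes. The mean level of Myl2 was 322 CPM in TO (SD 387, n = 4) against 85.1 CPM in control (SD 95.1, n = 4), and its log2 fold change was 1.81 (standard error 1.68). The log2 fold change was 1.80 for Myl3 (standard error 1.45), 1.15 for Myh7 (standard error 0.90) and 1.17 for Mybpc3 (standard error 0.84). Tnni3 had the smallest unadjusted p of the group, 0.0986 in the quasi-likelihood test, at a log2 fold change of 1.08 (standard error 0.60). For Ankrd1 it was 0.42 (standard error 0.86), for Irx4 0.42 (standard error 1.51) and for Hand1 -0.47 (standard error 1.71). The log2 fold change of Myl2 was -0.75 in limma-voom, 0.33 with a block by replicate number, 0.33 with a block by specimen code and 0.98 without TO 1. That of Ankrd1 was 1.78 in limma-voom and 1.42 with the block by replicate number. That of Irx4 was -2.81 without TO 4 and -0.0059 without control 2, and that of Hand1 was 0.11 without TO 2 and 0.067 without TO 3. Without TO 1 the median of the 8 genes was 0.66.

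**Figure D4:**
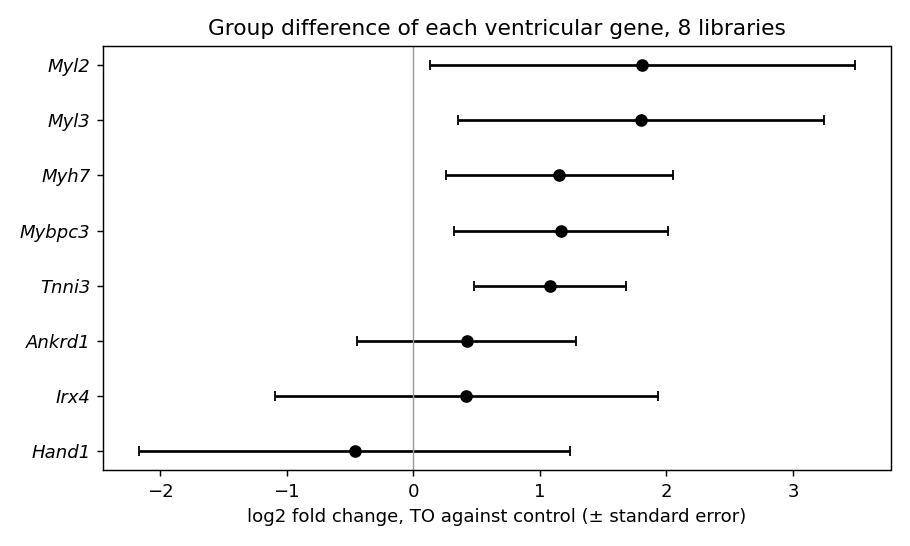
Log2 fold change of TO against control for each of the 8 genes, from the edgeR fit of 8 libraries, with whiskers of 1 standard error. The whiskers of Ankrd1, Irx4 and Hand1 cross 0, and none of the 8 genes was called.

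The labels do not pair lungs by replicate number, so a comparison by number describes values only. Seen in this way, the difference between the groups took both directions. TO 1 and TO 4 had more Myl2 than controls 1 and 4, and TO 2 and TO 3 had less than controls 2 and 3. Lungs 1 and 4 of both groups share a specimen code in the names of the deposited data, whose meaning no source gives. The same was true of Myl3 for numbers 1, 3 and 4, while for number 2 TO was at 4.81 CPM and control at 2.63 CPM. Ankrd1 was higher in TO for numbers 1, 2 and 4 and lower for number 3.

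Lists of related genes were described in the same fit. Of 4 other ventricle-enriched genes 4 were higher in value in TO (median log2 fold change 0.71), and of 8 atrial genes 8 were (median 0.62). Of 12 shared cardiac genes 12 were higher in value, with a median of 1.02. EdgeR called 0 genes of these 3 lists, and 0 had an unadjusted p under 0.05. Of 5 cardiac transcription factors 5 were higher in value and 1, Nkx2-5, had an unadjusted p under 0.05, with 0 called. Of 11 skeletal muscle genes tested 11 were higher in value with a median of 2.63, 11 had an unadjusted p under 0.05 and 0 were called. Without TO 1 the skeletal median was 1.12, and 5 of the 11 had an unadjusted p under 0.05. The 8 other Yap and Taz targets had a median of -0.19, with 2 higher in value in TO and 0 called.

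Finally, genes whose levels most resembled those of Myl2 and Irx4 were sought among 16054 genes with a mean of at least 1 CPM over all 8 libraries. Likeness was Pearson's correlation of log2 CPM over the 7 libraries other than TO 1. These libraries share their scaling, and the values describe likeness only. For Myl2 the closest besides members were Abcb1b (r = 0.975), Pfkm, the muscle phosphofructokinase (r = 0.970), Lynx1 (r = 0.969), Lrrc10 (r = 0.961) and the myoglobin gene Mb (r = 0.95). For Irx4 they were Kcne1, a potassium channel subunit (r = 0.987), Ppargc1b (r = 0.982), Ppargc1a (r = 0.982), Mb (r = 0.980) and Pbxip1 (r = 0.979). Irx4 itself was under the limit of detection in controls 1 and 2 and TO 2, at 1, 1 and 0 read pairs. Its r values are therefore coarse. Mb was at 0.131, 0.520, 26.8 and 14.9 CPM in controls 1 to 4 and at 0.405, 1.61 and 37.6 CPM in TO 2 to 4. Outside the 7 libraries, TO 1 had 62.0 CPM of Mb. Among the members themselves, the correlation with Myl2 was 0.957 for Myh7, 0.953 for Myl3 and 0.953 for Irx4, and 0.728 for Mybpc3, 0.680 for Tnni3 and 0.540 for Ankrd1.

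Some counts carry limits from neighboring genes. Exons of Myh7 overlap the antisense transcript Mhrt, exons of Myl2 those of Ccdc63, exons of Myl3 those of Pth1r, and exons of Tnni3 those of Dnaaf3. Counts without regard to strand cannot place read pairs in such stretches, and STAR leaves them out of either gene. Myh6 and Myh7 are similar in sequence, and read pairs that fit both are left out also.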

How the data were processed

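The authors prepared NexteraXT libraries from the RNA of 4 control and 4 TO whole lungs, sequenced them in read pairs and aligned these to GRCm38 with STAR. What the authors deposited are the counts that STAR gave for each gene, without normalization. The paper itself describes the sequencing of fewer lungs in each group than were deposited. The version of STAR is not given in the sources used here, and the submitters' processing notes also name DESeq2. Of 55385 gene identifiers, 55144 matched GENCODE M21 without the version, from which symbols, coordinates and merged exon lengths were taken.

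Counts without regard to strand were used (a strand held 49.9% to 50.1% of read pairs). Read pairs on no gene made up 9.64% to 14.9% of a library and stayed out of library sizes. Genes with at least 5 read pairs in 3 or more of the 8 libraries were tested in edgeR 4.0.16 (R 4.3.3). Log2 CPM used a prior count of 2. Standard errors were derived from the fold change and F statistic of the fit. Shares were compared by exact permutation in SciPy 1.17.1. The fit was tested on simulated data. Alternatives were DESeq2 1.42.0, limma-voom (limma 3.58.1), other scaling, filters and strand counts, libraries left out, and blocks by replicate number or specimen code.

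All 8 members are named, with genes of 11 further lists and the 5 genes most like Myl2 and Irx4. The members and lists were chosen with earlier results of these data known. No source says that the lungs of a group came from separate litters, so p-values measure the spread between these samples.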

Additional observations from a re-analysis of the deposited data

Results flagged for a closer look

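Of 22 groups of 4 values examined, the level of each of the 8 genes and the 3 ventricular shares in each group, 1 held a library far from the rest of its group, and chance flags about 5% of groups. This was Hand1 among TO lungs, where TO 4 was at 0.397 CPM from 14 read pairs and the other 3 lungs at 0, so that the gap divided by the range was 1.0, above Dixon's 95% critical value for 4 samples. With the other 3 lungs at 0, this ratio is 1.0 at any level of TO 4, so the flag does not measure how far TO 4 lay from them. The limit of detection of TO 1, 10.3 CPM, lies above the level of TO 4.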

How the results depend on the processing

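Of 17 alternative settings, 0 called any of the 8 genes, and the median log2 fold change of the group stayed above 0 in each, between 0.66 and 1.72 when 1 library was left out. Over all genes, DESeq2 called 7 and the fit with a replicate block 3, against 0 in edgeR. The replicate block paired lungs by number, which the labels do not state. Deviations of same-numbered lungs correlated at 0.0518, 0.130, 0.157 and 0.0709, and controls 2, 3 and 4 correlated best with their own number but control 1 with TO 4, with which it shares the specimen code. Since 2 of the 4 values were not over 0.1, the numbers were not taken as pairs. Among single genes, the log2 fold change of Myl2 was -0.75 in limma-voom. That of Irx4 was -0.45 in limma-voom and -0.29 with the replicate block, and -2.81 to 1.33 when 1 library was left out. That of Hand1 was 0.085 in DESeq2 and -0.87 to 0.11 when 1 library was left out, and it could not be tested in settings in which it had 5 read pairs in too few libraries. The difference in the share of Myl2 was 0.17 to 27.0 points and that of Myh7 -4.74 to 10.6 points when 1 library was left out, and -4.75 points without control 3 and TO 1 together. The lists without TO 1 were computed after seeing the data. The causes of these changes were not tested. The depth of TO 1 limits its values of Irx4 and Hand1 most.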

Other observations

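Genes of the epicardium and mesothelium, which cover heart and lungs, were divided. Msln, a mesothelial surface protein gene, was at 172, 299, 436 and 233 CPM in controls 1 to 4 and at 117, 338, 339 and 130 CPM in TO 1 to 4, lowest in TO 1 and TO 4 and highest in control 3. Wt1, a factor of both, was at 16.2, 14.3 and 14.5 CPM in controls 3 and 4 and TO 4, which had high Myl2, at 6.85 to 10.3 CPM in controls 1 and 2, TO 2 and TO 3, and at 10.3 CPM in TO 1 from 3 read pairs. Tbx18, an epicardial factor, was at 3.81, 2.34, 5.08 and 9.73 CPM in controls 1 to 4 and 17.2, 8.37, 7.18 and 8.43 CPM in TO 1 to 4, the first from 5 read pairs. Of 6 genes of this list, 3 were higher and 3 lower in value in TO (median log2 fold change -0.035), and edgeR called 0. Of 7 lung genes, 3 were higher and 4 lower in value, with a median of -0.21 and 0 called. Of 5 hepatocyte genes 3 were higher in value, with a median of 0.29 and 0 called. Of 4 thymocyte genes tested 4 were higher in value, with 4 at an unadjusted p under 0.05 and 0 called. Among these, Cd8b1 passed the filter through TO lungs alone, with 8, 11 and 41 read pairs in TO 1 to 3. It had at most 1 read pair in any control, so its direction was given by the filter. Without TO 1, 2 thymocyte genes were tested, and 2 were higher in value with an unadjusted p under 0.05. The 2 slow skeletal troponin genes, Tnnt1 and Tnni1, had a median of 1.03.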
